A study of Mus musculus with 6 samples.

Results

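Collagen chain genes were followed in the retinal pigment epithelium (RPE), the cell layer behind the photoreceptors, after damaging light. A gene was taken where its symbol in the platform annotation was Col, a number, the letter a and a number, and where a probe set was assigned to that symbol alone. This gave 42 genes of 18193 measured, each read by the probe set with the highest mean over all 6 arrays. All mice were of the albino strain BALB/c and were kept in the dark for 1 week. In the dark-adapted group nothing further was done, and in the light-damaged group 6000 lux of white fluorescent light was given for 1.5 h, with the RPE taken 24 h later. There were 3 Affymetrix arrays per group, numbered as replicates 1 to 3. The labels give no age or sex, and they do not say whether a sample was 1 mouse or a pool, and p-values here therefore reflect the spread among these 6 arrays alone, part of which may be technical.

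Collagens are secreted proteins of 3 chains wound into a triple helix, and each gene encodes 1 chain. Fibrillar chains (types I, II, III, V, XI, XXIV and XXVII) form the banded fibres of connective tissue such as the sclera and the choroid. Type IV chains form the sheet-like network of basement membranes, where types XV and XVIII also lie. The RPE rests on Bruch's membrane, a layered sheet that holds its own basement membrane, that of the choroidal capillaries, and fibrillar collagen between them. The remaining chains include those that sit on fibril surfaces (FACIT collagens), the beaded filaments of type VI, the networks of types VIII and X, and transmembrane collagens of epithelia and neurons.

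Values are log2 expression values from RMA, a method that corrects, normalizes and summarises the probes of an array. Differences are light-damaged minus dark-adapted in log2 units, ± standard error, from limma with the replicate number as a block, and a gene was called where its p, adjusted over all genes, was under 0.05. Levels of different probe sets are not amounts, so no gene is said to be more abundant than another, and a level serves only to say how bright a probe set was.

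Of the 42 collagen genes, 1 rose, 2 fell and 39 did not pass. The 3 called genes are 7.14% of the collagen genes, against 4.99% called over all genes, so the family as a whole was close to the background. By direction, 3.07% of all genes rose and 1.92% fell. Fibrillar Col3a1 rose 1.76-fold, and the FACIT genes Col19a1 and Col9a1 fell 1.59-fold and 1.38-fold. The median difference over the 42 genes was -0.0059, against -9.4e-05 over all genes, with 21 genes above 0 and 21 below. An unadjusted p under 0.05 was found for 9 of the 42 (21.4%, against 19% of all genes). The groups did not overlap for 3 genes (7.14%, against 10.3% of all genes), namely Col3a1 above (6.61% of all genes) and Col8a2 and Col9a3 below (3.72%). Without the replicate block limma called none of the 42. In that fit 3 of them, the same as those whose groups did not overlap, had an unadjusted p under 0.05 (7.14%, against 5.94%), and over all genes 0.0495% were called. Leaving out both arrays of replicate 1, 2 or 3 called 4, 5 and 0 of the 42, against 6.84%, 3.72% and 1.25% of all genes. In these limma fits 15, 12 and 8 of the 42 had an unadjusted p under 0.05. The share over all genes was not counted for these fits, so nothing is concluded from those counts. With the replicate 1 arrays left out and no block, a setting chosen after the data were seen, 3 were called, against 4.36%.

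**Figure D1:**
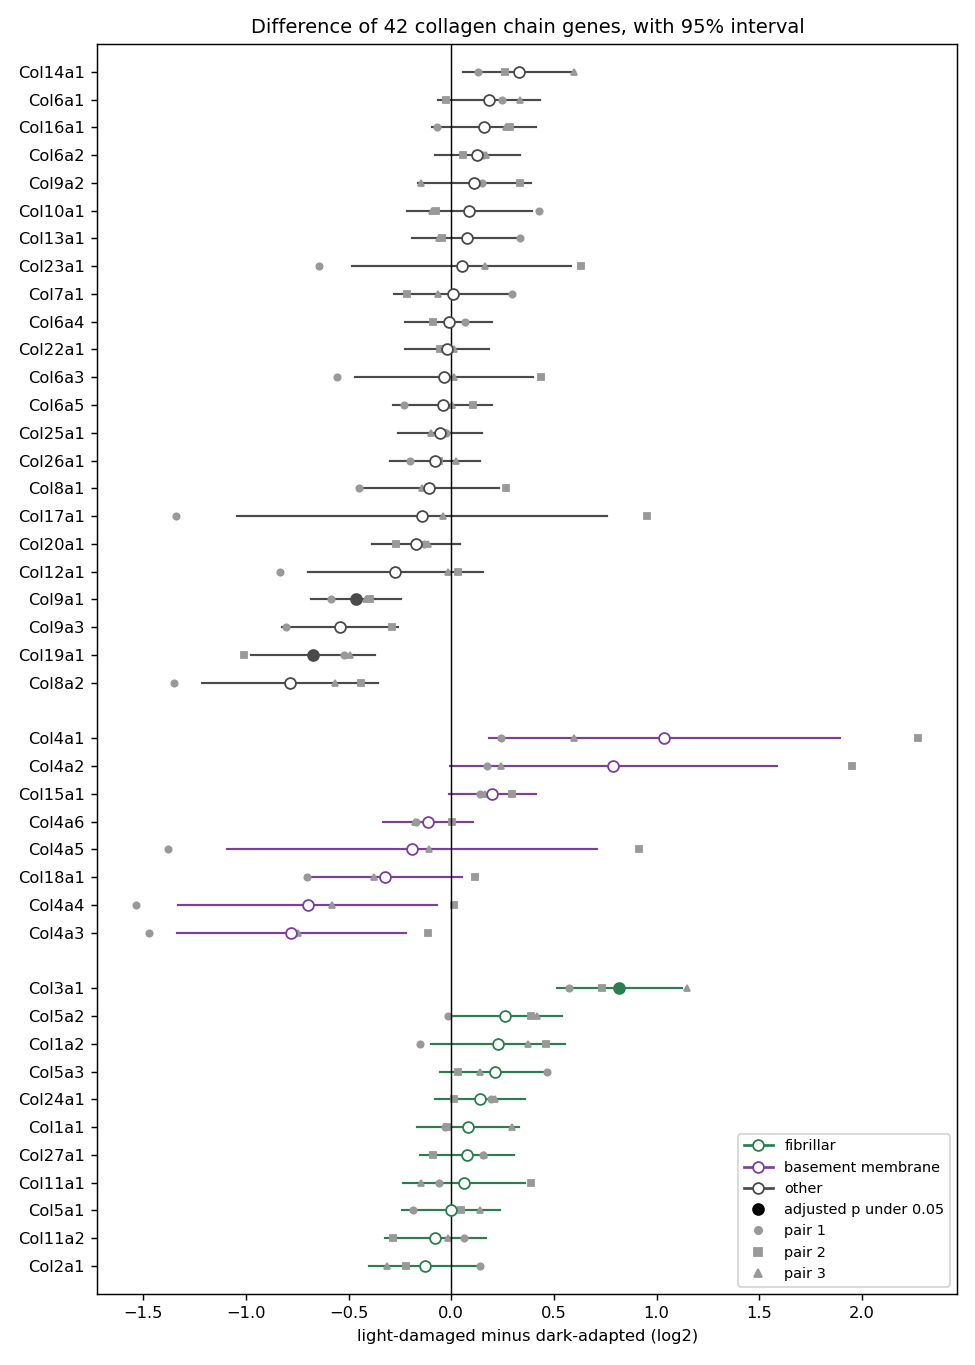
Difference of each of the 42 collagen chain genes, light-damaged minus dark-adapted in log2 units, with its 95% interval (line), for fibrillar, basement membrane and other chains. Filled circles passed at an adjusted p under 0.05 (Col3a1, Col19a1 and Col9a1), and small grey marks are the differences within each replicate number, which lie far apart for Col4a1, Col4a2, Col4a5 and Col17a1.

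The arrays differed in ways that the groups do not explain. The first principal component over all genes took 74.4% of the variance and placed the replicate 1 arrays at -38.6 and -68.7, with the other 4 between 18.8 and 34.0. The 10 RPE markers averaged 11.89 to 12.93 per array, and the probe set of the chloride channel gene Best1, the dimmest of them, averaged 8.04. Transcripts of other tissues were present as well. The 9 rod and cone markers measured averaged 12.48 or more in each dark-adapted and 12.40 or less in each light-damaged array. The RPE list was also lower after light, at 12.54 to 12.93 against 11.89 to 12.48. In bulk samples fewer cells of a type and less RNA per cell cannot be told apart.

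Col3a1, the single chain of type III collagen, which forms fine fibres in vessels and extensible tissue, was the 1 collagen gene that rose. Its value was 10.27, 10.27 and 9.78 in dark-adapted replicates 1, 2 and 3 and 10.84, 11.01 and 10.93 in the light-damaged ones. All light-damaged arrays lay above all dark-adapted arrays. The mean went from 10.11 ± 0.28 (SD, n = 3) to 10.93 ± 0.08, a difference of 0.82 ± 0.13 with a 95% interval of 0.51 to 1.12 (limma adjusted p = 0.0208). The second, much dimmer probe set of Col3a1 gave 0.54 ± 0.09 (unadjusted p = 0.000599). The difference was 0.94 without replicate 1, 0.86 without replicate 2 and 0.65 without replicate 3. Col3a1 passed in 14 of 22 alternative analyses, and its adjusted p ranged from 0.00200 to 0.779. It was 0.232 without the replicate block and 0.0942 without replicate 3. Markers of fibroblasts and pericytes, the cells that make most fibrillar collagen, averaged 10.10 to 10.30 in dark-adapted and 10.25 to 10.48 in light-damaged arrays. Of these 10 markers 2 rose, the growth factor receptor gene Pdgfra 1.66-fold and the smooth muscle gene Tagln 1.49-fold, and none fell. Over all genes 3.07% rose. Of the other markers, Lum, Dcn, Rgs5, Acta2 and Postn had differences of 0.44, 0.28, 0.26, 0.15 and 0.11. Pdgfrb, Thy1 and Cspg4 had differences of -0.22, -0.22 and -0.14. Neither Pdgfra nor Tagln passed without replicate 2 (limma adjusted p = 0.0605 and 0.123) or without replicate 3 (0.0967 and 0.195). The part of these cells in the rise of Col3a1 was not tested.

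The sequence before the start of Col3a1 is given because this was the 1 fibrillar gene that rose. It is taken from RefSeq on GRCm38.p6, as are the other sequences here, and runs over the 130 bases before the start, at chr1:45311408-45311537 on the plus strand. Capitals mark the letters of a TATA box, TATAAA, searched on both strands, and they lie 117 bases before the start. The boxes marked here and below are matches of letters alone, and whether they act as promoter elements was not tested.
Col3a1: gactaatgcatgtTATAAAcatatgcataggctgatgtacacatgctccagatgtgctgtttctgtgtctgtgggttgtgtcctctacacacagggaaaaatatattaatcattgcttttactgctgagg

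The other 10 fibrillar genes did not pass, and the median over the 11 was 0.08, with 9 above 0. Col5a2, a chain of type V collagen, which is built into type I fibres and sets their width, is the direct neighbour of Col3a1 on chromosome 1. It read 8.43, 8.35 and 8.23 in dark-adapted replicates 1, 2 and 3, and 8.41, 8.73 and 8.65 after light. Its replicate 1 arrays differed little and its other arrays were higher after light, and the difference was 0.26 ± 0.11 (limma adjusted p = 0.284). Col1a2, the second chain of type I collagen, the main collagen of sclera, read 11.84, 11.41 and 11.26 against 11.69, 11.87 and 11.63. The groups overlapped through dark-adapted replicate 1, and the difference was 0.23 ± 0.14 (limma adjusted p = 0.446). Without replicate 1 it was 0.42 and passed (limma adjusted p = 0.0473), and over its 22 alternatives the adjusted p reached 1.00. Its partner chain Col1a1 gave 0.08 ± 0.10. Col27a1, a fibrillar chain of cartilage, read 9.34, 9.39 and 9.09 against 9.50, 9.30 and 9.25, a difference of 0.08 ± 0.10. The other 6 fibrillar genes, Col2a1, Col5a1, Col5a3, Col11a1, Col11a2 and Col24a1, had differences from -0.13 for Col2a1 to 0.21 for Col5a3.

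Both called falls were of FACIT collagens, which bind to fibrils and do not form fibres of their own. Among the 23 chains that are neither fibrillar nor of basement membranes 2 fell (8.7%, against 1.92% of all genes) and none rose. Their median was -0.03. Both falls lay in the subgroup of 9 FACIT genes (22.2%), and 2 neighbouring genes are too few to describe that subgroup. The median over the 9 FACIT genes was -0.17, with 3 above 0 and 6 below. Larger differences below 0 that did not pass lay outside the FACIT genes, in Col8a2 (-0.78), Col4a3 (-0.78) and Col4a4 (-0.70). Col19a1, a chain of type XIX collagen, found in the basement membrane zone and made by some neurons, read 7.99, 9.05 and 8.78 in dark-adapted and 7.47, 8.04 and 8.29 in light-damaged replicates 1, 2 and 3. The groups overlapped, since dark-adapted replicate 1 lay below the other dark-adapted arrays, but every light-damaged array was below the dark-adapted array of its number. The difference was -0.67 ± 0.13 (95% interval -0.97 to -0.37, limma adjusted p = 0.0354). A second probe set of Col19a1 gave -1.11 ± 0.22 (unadjusted p = 0.00161) and the dimmest gave -0.13 ± 0.09. Col19a1 passed in 11 of 22 alternatives, its adjusted p ranged from 0.0117 to 1.00, and it was 0.0249 without replicate 1, 0.0779 without replicate 2 and 0.0933 without replicate 3. With the replicate number as a random effect, with an estimated correlation, Col19a1 did not pass (adjusted p = 0.0594).

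Type IX collagen, the FACIT of cartilage, vitreous and eye surface fibrils, is built of the chains of Col9a1, Col9a2 and Col9a3. Col9a1 read 9.04, 9.69 and 9.76 in dark-adapted and 8.45, 9.30 and 9.35 in light-damaged replicates 1, 2 and 3. The groups overlapped because both replicate 1 arrays were low, and the differences within a number were close, at -0.59, -0.39 and -0.41. Col9a1 fell by 0.46 (-0.46 ± 0.09, limma adjusted p = 0.0406), and its second probe set gave -0.0045 ± 0.086 (unadjusted p = 0.960), so its probe sets disagreed. Col9a1 passed in 8 of 22 alternatives, with an adjusted p of 0.0128 to 1.00, and did not pass without replicate 1 (0.0502), without replicate 2 (0.0889) or without replicate 3 (0.194). With the replicate number as a random effect it did not pass either (adjusted p = 0.101 with an estimated correlation).

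Col9a3 read 11.70, 11.33 and 11.68 against 10.89, 11.05 and 11.15. Its groups did not overlap, the difference was -0.54 ± 0.12, and it missed the threshold (limma adjusted p = 0.0550). Its 2 further probe sets gave -0.49 ± 0.15 and -0.22 ± 0.08. It passed without replicate 2 (0.0334) and with the replicate number as a random effect (0.0344), and over 22 alternatives its adjusted p lay between 0.0144 and 1.00. Col9a2, whose probe set was dim at a mean of 6.32 over the 6 arrays, gave 0.11 ± 0.11.

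Cartilage markers were read beside these chains, because types II, IX and XI share that tissue. Of 7 cartilage markers 1 fell, the chondromodulin gene Cnmd (-0.67 ± 0.12, limma adjusted p = 0.0296), and none rose. Over all genes 1.92% fell. Cnmd was also the only 1 of the 7 with an unadjusted p under 0.05, against 19% of all genes. Cnmd did not pass without replicate 2 (0.0656) or without replicate 3 (0.0521). The list averaged 6.60 to 6.87 in dark-adapted and 6.58 to 6.68 in light-damaged arrays. The RPE and photoreceptor lists, given above, were lower after light in the same arrays as Col9a1, Col19a1 and Col9a3, and their part in these falls was not tested.

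Col9a1 and Col19a1 lie next to each other on chromosome 1, and RefSeq gives Col9a1 a first and a second start. The 130 bases before each start are shown because these were the collagen genes that fell. Those of Col9a1 lie on the plus strand at chr1:24177480-24177609 and chr1:24195073-24195202, and those of Col19a1 on the minus strand at chr1:24587438-24587567. Capitals mark a CCAAT box, CCAAT, which lies 18 bases before the second start of Col9a1. The TATA box, the CCAAT box and the GC box (GGGCGG) were not found on either strand in the other 2 stretches. Which start the probe sets of Col9a1 read was not examined.
Col9a1, first start: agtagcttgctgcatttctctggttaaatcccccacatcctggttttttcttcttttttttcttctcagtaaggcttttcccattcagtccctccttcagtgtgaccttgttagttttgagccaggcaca
Col9a1, second start: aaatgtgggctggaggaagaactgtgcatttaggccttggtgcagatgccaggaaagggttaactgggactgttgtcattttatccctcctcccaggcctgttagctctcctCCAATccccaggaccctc
Col19a1: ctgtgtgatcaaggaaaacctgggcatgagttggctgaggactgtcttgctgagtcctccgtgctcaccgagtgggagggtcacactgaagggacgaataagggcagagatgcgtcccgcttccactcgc

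The remaining FACIT genes did not pass. Col14a1, a chain that coats fibrils in dense connective tissue, gave 0.33 ± 0.11 (limma adjusted p = 0.182), with 0.41 ± 0.08 (unadjusted p = 0.00188) for a dimmer probe set and 0.07 ± 0.12 for the dimmest. Col12a1, a related chain of tendon and cornea, gave -0.27 ± 0.18, with -0.84 in pair 1 and 0.03 and -0.01 in pairs 2 and 3. Col16a1, Col20a1 and Col22a1 had differences of 0.16, -0.17 and -0.02.

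Type VIII collagen forms the hexagonal sheets of Descemet's membrane and is made by vessels. Col8a2 read 11.61, 11.54 and 11.66 in dark-adapted and 10.26, 11.10 and 11.10 in light-damaged replicates 1, 2 and 3. All light-damaged arrays lay below all dark-adapted arrays, with replicate 1 lowest. The difference was -0.78 ± 0.18 (95% interval -1.21 to -0.36) and missed the threshold (limma adjusted p = 0.0627). Without replicate 1 it was -0.50 and without replicate 2 -0.96, and it passed in both cases (0.0283 and 0.0262). Over 22 alternatives the adjusted p of Col8a2 ranged from 0.0188 to 1.00. Its partner chain Col8a1 read 12.70, 12.94 and 13.36 against 12.25, 13.21 and 13.22. Those groups overlapped, and the difference was -0.11 ± 0.14 with an interval of -0.45 to 0.23. Further probe sets of Col8a1 gave -0.02 ± 0.13 and, for the dimmest, 0.31 ± 0.15. The difference between the chains was not tested. Col10a1, the network collagen of growth cartilage, gave 0.09 ± 0.13.

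**Figure D2:**
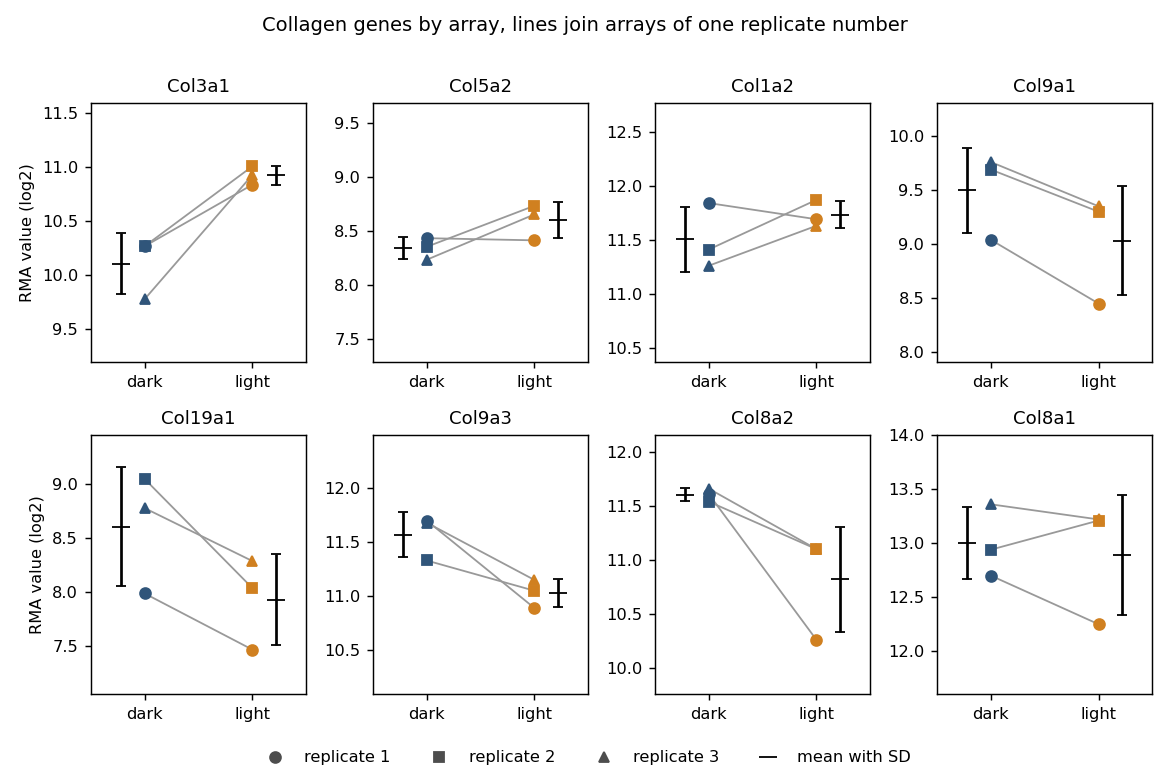
RMA values (log2) of 8 collagen genes on the 6 arrays, with a line joining the arrays of each replicate number and the group mean with its SD beside the points; the vertical scale differs between panels. All light-damaged arrays lie above the dark-adapted ones for Col3a1 and below them for Col9a3 and Col8a2, while Col9a1 and Col19a1 fall within every replicate number although the groups overlap.

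No basement membrane gene passed among 8, and 3 had an unadjusted p under 0.05 (37.5%, against 19% of all genes). All 8 had overlapping groups, and over all genes the groups did not overlap for 10.3%. Col4a1 and Col4a2, whose products form the type IV network found under nearly all epithelia and vessels, had differences above 0 that rested largely on 1 array. Col4a1 read 10.60, 10.29 and 9.99 in dark-adapted and 10.84, 12.57 and 10.58 in light-damaged replicates 1, 2 and 3. Light-damaged replicate 2 stood far above the other 5 arrays, and the groups overlapped. The difference was 1.04 ± 0.36, the largest of any collagen gene, and did not pass (limma adjusted p = 0.179). Col4a2 read 9.34, 9.15 and 8.89 against 9.51, 11.10 and 9.13, again with light-damaged replicate 2 apart, and gave 0.79 ± 0.33 (limma adjusted p = 0.266). Without replicate 2 these differences were 0.42 and 0.21 (limma adjusted p = 0.182 and 0.521). A further probe set of Col4a1 gave 0.69 ± 0.32.

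Col4a3, Col4a4 and Col4a5 encode the network of the kidney filter and of some epithelia, the one affected in Alport syndrome. Col4a3 read 9.92, 10.10 and 10.24 in dark-adapted and 8.44, 9.99 and 9.49 in light-damaged arrays, and each light-damaged array was below that of its number. Col4a4 read 11.05, 11.44 and 11.68 against 9.51, 11.45 and 11.10. The lowest value of each was in light-damaged replicate 1, and the replicate 2 arrays hardly differed. The differences were -0.78 ± 0.23 for Col4a3 and -0.70 ± 0.26 for Col4a4, and neither passed (limma adjusted p = 0.132 and 0.216). Without replicate 2 they were -1.11 and -1.06 and passed (0.0120 and 0.0273), and over 22 alternatives their adjusted p reached 1.00. Further probe sets gave -0.52 ± 0.13 for Col4a3 and -0.32 ± 0.12 and -0.10 ± 0.10 for Col4a4. Col4a5 read 9.44, 10.11 and 10.13 against 8.06, 11.02 and 10.02, with light-damaged replicate 1 the lowest and replicate 2 the highest of all 6 arrays. Its difference was -0.19 ± 0.38, with an interval of -1.09 to 0.71. A dimmer probe set of Col4a5 had the opposite sign, at 0.21 ± 0.16. Col4a6 gave -0.11 ± 0.09.

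Light-damaged replicate 2 also stood apart in genes of the lens and of surface epithelium, read from lists drawn up after its values were seen. The lens capsule is a thick basement membrane rich in Col4a1 and Col4a2. The mean of 14 lens genes was 7.60 to 8.77 in dark-adapted arrays, 8.81 and 8.17 in light-damaged replicates 1 and 3, and 11.04 in light-damaged replicate 2, where 13 of the 14 had their highest value. The crystallin gene Crygs, for example, read 13.32 there and 6.82 in dark-adapted replicate 3, its lowest. The mean of 11 surface epithelium genes was 10.38 there and 8.77 to 9.56 elsewhere, and the corneal keratin gene Krt12 was at 13.65 to 14.38 on all arrays. Of the 14 lens genes 1 rose (Cryaa, limma adjusted p = 0.0474, and 0.104 without replicate 3) and none fell. Their median difference was 1.01, and 8 had an unadjusted p under 0.05 (19% of all genes did). The lens mean was higher after light within all 3 replicate numbers, at 8.51, 8.77 and 7.60 against 8.81, 11.04 and 8.17. None of the 11 epithelium genes passed, with 1 at an unadjusted p under 0.05. Nid1, nidogen-1, which links laminin to type IV collagen, read 8.39, 8.53 and 8.08 against 8.70, 10.79 and 8.42. Col17a1, the hemidesmosome collagen of surface epithelium, read 8.96, 9.60 and 8.45 against 7.62, 10.55 and 8.41, a difference of -0.14 ± 0.38. In all, 11 of the 42 collagen genes (26.2%) were highest in light-damaged replicate 2, against 7.54% of all genes. The part of lens or surface tissue in the values of Col4a1, Col4a2 and Col17a1 was not tested. The 10 endothelial markers averaged 7.5 to 7.68 in dark-adapted and 7.58 to 7.85 in light-damaged arrays. Of these 1 rose (3.07% of all genes did), the clotting factor gene Vwf (0.68 ± 0.11, limma adjusted p = 0.0234, and 0.124 without replicate 3).

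**Figure D3:**
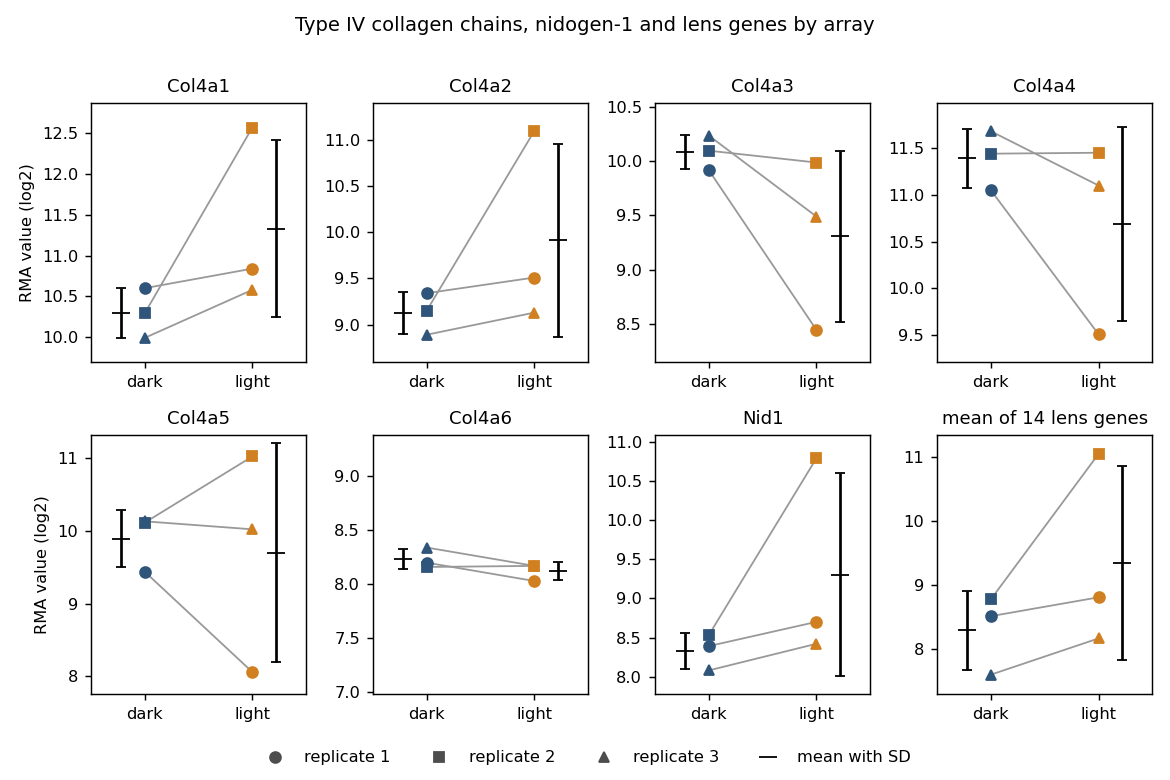
RMA values (log2) of the 6 type IV collagen genes, of Nid1 and of the mean of 14 lens genes on each array, drawn as in the plot of called genes, with a vertical scale of its own in each panel. Light-damaged replicate 2 is far above the other arrays for Col4a1 (12.57), Col4a2 (11.10), Nid1 (10.79) and the lens mean (11.04), and light-damaged replicate 1 is the lowest for Col4a3, Col4a4 and Col4a5.

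Col4a1 and Col4a2 lie head to head on chromosome 8, on opposite strands, and are known to share a promoter. Their RefSeq starts on GRCm38.p6 are 21 bases apart, and the 2 annotated transcripts overlap at these starts. The windows of 250 bases before to 50 after each start overlap by 78 bases. The stretches below, 30 bases each on the plus strand at chr8:11312763-11312792 and chr8:11312805-11312834, are shown because these genes had alike values across the arrays. Capitals mark a CCAAT box that lies 32 bases before the start of Col4a2 and a GC box, GGGCGG, that begins at base 8 after that start, and no match shown overlaps another. Both boxes lie on the transcribed side of the annotated Col4a1 start.
Col4a2, before its start: gaggagctccCCAATttgttggcgctgccc
Col4a2, from its start: agtgcgcGGGCGGcgtctccaaggggagga

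RefSeq windows of this kind were found for 33 of the 42 genes, 36 windows in all. On either strand TATAAA occurred in 13.9% of them and in 13.6% of 32851 windows of all genes, CCAAT in 36.1% and 37.4%, and GGGCGG in 61.1% and 35.7%. Collagen genes often lie side by side, and the GRCm38.p6 table holds 8 pairs that are direct protein-coding neighbours, 7 of them with both genes measured. In all 7 both genes had differences of the same sign, among them Col4a3 with Col4a4, Col3a1 with Col5a2, Col9a1 with Col19a1, and Col6a1 (0.19) with Col6a2 (0.13). For Col4a6 with Col4a5 and Col6a5 with Col6a4 the values were near 0 or varied widely. Further probe sets of Col4a5 (0.21) and Col6a4 (0.16) had the opposite sign, so those pairs depend on the probe set used. The share of neighbours with the same sign over all genes was not counted. No test was made, and nothing is concluded from the 7 pairs.

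The multiplexins Col15a1 and Col18a1 bridge basement membranes and fibrils, and the end of the Col18a1 product is released as endostatin. Col18a1 read 11.97, 11.44 and 11.67 against 11.27, 11.56 and 11.30, with overlapping groups and a difference of -0.32 ± 0.16 (limma adjusted p = 0.345). Without replicate 2 it was -0.54 and did not pass (0.0827). Col15a1 was higher within all 3 replicate numbers, by 0.14, 0.30 and 0.16, and its difference of 0.20 ± 0.09 did not pass (limma adjusted p = 0.294).

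Among the other types, none of the 5 beaded filament genes passed, and all 5 were within 0.25 of 0, from -0.04 for Col6a5 to 0.19 for Col6a1, with none at an unadjusted p under 0.05. Col6a1 and Col6a2 were higher in the replicate 1 arrays of both groups, by 0.64 and 0.77 over the other arrays. Col6a3 and Col6a4 had differences of -0.03 and -0.01. Col7a1, the anchoring fibril chain of skin and cornea, gave 0.01 and Col26a1 -0.08. Of the transmembrane collagens Col13a1, Col23a1 and Col25a1 gave 0.08, 0.05 and -0.05. Col23a1 differed by -0.64 in pair 1 and by 0.63 in pair 2.

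Of 71 measured genes that make, bind or degrade collagen, from 5 lists, 3 rose and 1 fell, which is 5.63% against 4.99% over all genes. Without the replicate block none of them was called by limma, and 4 of the 71 had an unadjusted p under 0.05, against 5.94% of all genes. Of 28 genes of synthesis and processing 2 rose, Pcolce2 and Bmp1, and none fell. The median was 0.14. Pcolce2, an enhancer of the procollagen C-proteinase, read 10.03, 8.99 and 9.49 in dark-adapted and 11.25, 10.20 and 10.18 in light-damaged replicates 1, 2 and 3. Every light-damaged array was above all dark-adapted ones, and Pcolce2 rose 2.05-fold (1.04 ± 0.13, limma adjusted p = 0.0100). Bmp1, the C-proteinase itself, read 8.59, 8.51 and 8.29 against 9.05, 9.57 and 8.98. Its groups did not overlap either, and it rose 1.66-fold (0.73 ± 0.13, limma adjusted p = 0.0304). Pcolce2 passed without any single replicate, at 0.0111 to 0.0171, and in 15 of 22 alternatives. Bmp1 passed in 11, and not without replicate 2 (0.0580) or replicate 3 (0.114). Of related genes, the enhancer gene Pcolce gave 0.33 ± 0.11 (limma adjusted p = 0.152), and Adamts3, a procollagen N-proteinase, gave -0.42 ± 0.13 (0.151), lower in all 3 pairs; neither passed. Ppib, a proline isomerase of the endoplasmic reticulum, and Lox, lysyl oxidase, which crosslinks collagen, gave 0.40 ± 0.10 and 0.47 ± 0.12 and did not pass (limma adjusted p = 0.0782 and 0.0837).

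Of 9 genes of degradation 1 rose and 1 fell, and over all genes 3.07% rose and 1.92% fell. Mmp2, the gelatinase that cuts type IV and denatured collagen, read 10.16, 9.72 and 9.39 against 10.65, 10.11 and 10.11. The groups overlapped, each light-damaged array was above that of its number, and Mmp2 rose 1.45-fold (0.53 ± 0.10, limma adjusted p = 0.0355). Fap, a serine protease of activated fibroblasts, read 13.02, 12.71 and 13.10 against 12.26, 12.34 and 12.55. These groups did not overlap, and Fap fell by 0.56 (-0.56 ± 0.11, limma adjusted p = 0.0363). Without replicate 3 neither passed (0.232 and 0.170). Mmp8 and Mmp9, collagenase and gelatinase of neutrophils, gave 0.24 and 0.21 and did not pass.

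No gene passed among 9 collagen receptors, 10 small leucine-rich proteoglycans, which coat fibrils, and 15 basement membrane partners. An unadjusted p under 0.05 was found for 1, 2 and 2 of these, and for 19% of all genes. Among receptors the integrin chain Itgb1 and the discoidin receptor Ddr1 gave 0.28 ± 0.11 and 0.22 ± 0.10, the inhibitory receptor Lair1 0.19 and the endocytic receptor Mrc2 -0.21. Among proteoglycans Lum, lumican, gave 0.44 ± 0.16 and Fmod, fibromodulin, -0.62 ± 0.23, while Ogn and Kera gave -0.42 and -0.29. Without replicate 2 Fmod and Ogn were at -0.96 and -0.72 and passed (limma adjusted p = 0.0200 and 0.0277). Without replicate 1 Lum was at 0.68 and passed (limma adjusted p = 0.00930). Nid1 gave 0.97 ± 0.37 and 0.33 without replicate 2, and the laminin chains Lama4 and Lama2 and agrin, Agrn, gave 0.25, 0.25 and 0.20. Agrn was at 0.41 without replicate 1 and passed (limma adjusted p = 0.0482), and Lama2 was at 0.07 without replicate 2.

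**Figure D4:**
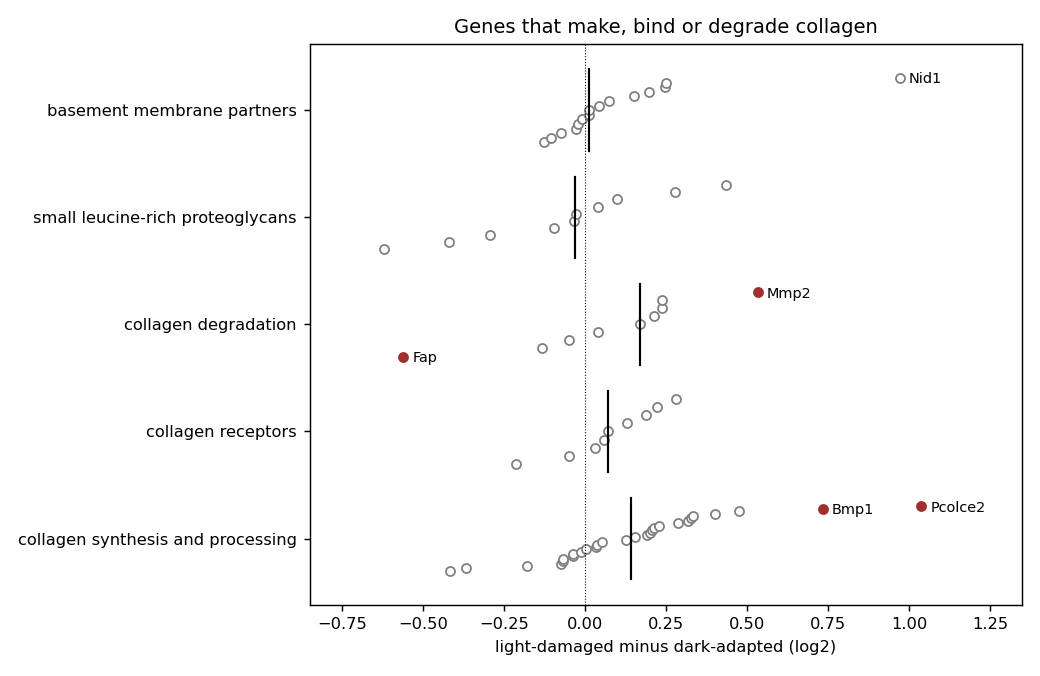
Difference of each measured gene in 5 lists, light-damaged minus dark-adapted in log2 units, with filled points for genes at an adjusted p under 0.05 and a vertical bar for the median of the list. Pcolce2 and Bmp1 lie to the right in the synthesis list and Mmp2 and Fap on either side in the degradation list, while Nid1 (0.97), which did not pass, stands apart from the other basement membrane genes.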

How the data were processed

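Total RNA of mouse RPE was hybridised to 6 Affymetrix arrays. The deposited values are log2 expression per probe set, a scale read from the values. The submitters' processing notes name RMA, with no version given in the sources used here. RMA narrows differences of very dim probe sets. The table held 45101 probe sets, of which the platform annotation of 2016 gave exactly 1 symbol to 34945, for 18193 genes. The 42 collagen genes had 82 probe sets, and all 42 were found in the GRCm38.p6 table. Their 40 further probe sets had the same sign as the one used in 28 cases. By mean level 11 of the 42 were in the lowest 40% of genes. No low-value filter was applied.

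The comparison was fitted in R 4.3.3 by limma 3.58.1 (two-sided, lmFit then eBayes), with the replicate number as a block, 2 residual degrees of freedom and Benjamini-Hochberg adjustment over all genes, a function tested on simulated data. The labels share the numbers 1 to 3 without saying what a number marks. Arrays of 1 number were treated as pairs by the plan of the comparison. Across genes, array deviations from the group mean had correlations of 0.89, 0.62 and 0.86 within numbers 1, 2 and 3, above the bound of 0.1. Deviations cancel within a group. The correlation of dark-adapted replicate 2 with light-damaged replicate 3 was 0.65, and that of dark-adapted replicate 3 with light-damaged replicate 2 was 0.61. These also exceed the bound, so it cannot decide the pairing of numbers 2 and 3, which stays less certain.

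The members and lists were chosen with earlier results of these data known. Named in full were called collagen genes, the 3 with the highest mean value (brightness, not abundance) and the 2 with the largest difference among fibrillar, basement membrane and other chains; of the partner lists, called genes and the 4 with the smallest p. Col4a3, Col4a5, Col17a1 and the lens and surface epithelium lists were added after their values were seen. Pcolce and Adamts3 are given outside this rule, as genes related to Pcolce2 and Bmp1, although Plod3 had a smaller p. Alternatives covered the block, normalization, dim genes, a pseudocount of 16, the choice of probe set, limma settings, array weights and leaving out replicates or single arrays.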

Additional observations from a re-analysis of the deposited data

How the results depend on the processing

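The main analysis, with the replicate block, called 1 collagen gene higher and 2 lower, 559 and 349 of all genes, and 3 and 1 partner genes. Without the replicate block the counts were 0 and 0, 9 and 0, and 0 and 0. With the replicate number as a random effect 1 collagen gene was lower, Col9a3, and neither Col9a1 nor Col19a1 passed. Array weights called 3 collagen genes higher and 5 lower, 1099 and 776 of all genes, and 8 partner genes higher. The mean over probe sets left 1 collagen gene lower, Col19a1, and the lowest probe set 0, with 1 partner gene higher and a median over the collagen genes of 0.0433 against -0.0059. Leaving out both arrays of a replicate number, or a single array in the fit without the block, gave 0 to 2 collagen genes higher and 0 to 4 lower, 3 to 827 genes higher and 0 to 418 lower over all genes, 0 to 8 partner genes higher and 0 to 3 lower, and medians of -0.039 to 0.0573. With both replicate 1 arrays left out and no replicate block, a setting chosen after seeing the data, 217 genes were lower over all genes, 6 partner genes higher and 0 lower, and the median was 0.0573. No called collagen gene changed sign under any of the 22 alternatives. That is no support for the calls, because several alternatives leave the difference itself unchanged. The called genes also had 1 sign in all 3 pairs, so leaving out a replicate number could not reverse them. Of the 39 that did not pass, 23 changed sign under at least 1. With 3 arrays a group and 2 residual degrees of freedom, small differences could not be told from 0.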

Other observations

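Markers of several cell types were read on the same arrays, from lists fixed with earlier results of these data known. Over all genes 3.07% rose and 1.92% fell. Of 10 macrophage and microglia markers, 9 rose and none fell. The tenth, Csf1r, gave -0.15, was lower in all 3 pairs and did not pass. The list averaged 9.34 to 9.69 in dark-adapted and 10.32 to 10.63 in light-damaged arrays. Of 8 Müller glia genes, the intermediate filament genes Gfap and Vim rose and none fell, with a list median of -0.0023. Rlbp1, Apoe, Aqp4 and Glul were lower in all 3 pairs (-0.62, -0.39, -0.29 and -0.22) and did not pass. Slc1a3 and Kcnj10 gave 0.25 and 0.21 and did not pass either. The Müller glia list averaged 10.89 to 11.28 against 10.87 to 11.48. Of 6 genes listed for melanocytes, Pmel, a melanosome matrix gene, fell. The list averaged 11.89 or more in each dark-adapted and 11.86 or less in each light-damaged array, so the groups were only narrowly apart. Whether the values of these 6 genes came from melanocytes or from the RPE itself was not tested. Of 3 measured Schwann cell genes none passed, with none at an unadjusted p under 0.05, and the averages were 11.27 to 11.84 against 11.31 to 11.74. Of the 10 RPE markers 2 fell, and of the 9 rod and cone markers 5 fell, and none of either list rose. Without the replicate block no gene of these lists was called, against 0.0495% of all genes.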
